A study of Mus musculus with 2 samples.

Results

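Fibroblast subcluster 3 is the group of dividing fibroblasts that the study named proliferating myofibroblasts. It was found by clustering again the fibroblasts of the infarcted mouse ventricle, profiled as single cells. All 15059 genes of its deposited table were taken, out of 15181 different genes in the 22 tables of the series, and the 9015 genes counted in at least 25% of cells from either library are described. One library came from PostnMCM control hearts and the other from Yap fl/fl;Wwtr1 fl/+;PostnMCM hearts, with 1 library per genotype. Mice of both genotypes were adults that carried the R26-eGFP transgene and PostnMCM, a tamoxifen-inducible Cre expressed from the Postn locus, so that floxed alleles are cut only in cells in which Postn has been active. Both received 0.4 g/kg tamoxifen citrate chow from the time of myocardial infarction (MI), and hearts were collected 6 days after MI according to the labels, while the study's methods name a later day. Ventricular cells were released by enzyme perfusion, passed through a strainer to remove cardiomyocytes, treated to lyse red cells and sorted as live cells for 10x Chromium 3′ capture. The number of hearts behind each library is not given in the sources used here.

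After MI, resident fibroblasts enter the cell cycle for a few days while they become myofibroblasts, cells that contract and lay down collagen. YAP and TAZ (the products of Yap1 and Wwtr1) are co-activators that act with TEAD factors on genes of growth and matrix, and the kinases LATS1 and LATS2 of the Hippo pathway keep them out of the nucleus. A dividing cell switches on many of its mitotic genes together late in the cycle, and the promoters of many of them carry a cell cycle homology region (CHR), which MuvB complexes bind, and CCAAT boxes.

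The value given for each gene is the share of cells with a corrected count above 0, in percent, and the difference is the share in the library labelled Yap/Wwtr1-depleted minus the share in the control library, in percentage points. The steps between the deposited shares showed 30 cells in the control library and 23 in the library labelled depleted, so that 1 cell was worth 3.3 or 4.3 points. Intervals are exact (Clopper-Pearson) 95% binomial intervals from these inferred cell numbers and cover counting error only. Neither library was replicated, so no difference was tested, and genotype cannot be told apart from the mice, capture and library of each group. A difference of at least 30 points served as a fixed mark of size. A share of 0 allows up to 10% in the control library and 13% in the library labelled depleted, at 3 cells. UMIs per cell are not in the tables. A cell of subcluster 3 had a count for 5605 genes on average in the control library and 5485 in the library labelled depleted, and the same mean in subclusters 0, 4 and 5 ran from 4957 to 5495.

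Subcluster 3 made up 10.1% of the 298 control cells of the fibroblast cluster (95% interval 6.9% to 14.1%) and 12.3% of its 187 cells in the library labelled depleted (8% to 17.9%). These intervals overlapped, and with 1 library per genotype no difference in the share of dividing fibroblasts could be tested.

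The name given to the cells was checked against lists of marker genes. Of 66 genes of mitosis and the G2/M phase, 62 were counted in at least 50% of control cells of subcluster 3 and 56 in at least 50% of cells in the library labelled depleted. A control cell had counts for 54.4 of these 66 genes on average and a cell of the library labelled depleted for 49.7, against 12.4 to 14.9 in subclusters 0, 4 and 5 of either library. The lowest members in subcluster 3 were Ccnf, at 13.3% of control cells and 13% of cells in the library labelled depleted, and Aurkb, at 17.4% in the latter. The cells were clustered on their own expression, so this describes the cluster and is no test of it.

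**Figure D1:**
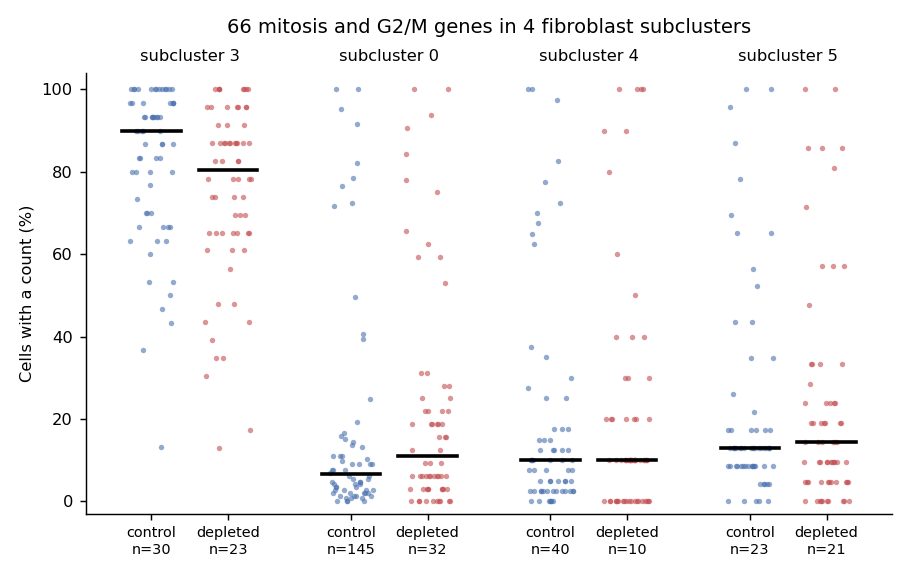
Share of cells with a count (vertical axis, percent) for each of 66 mitosis and G2/M genes (points) in the control library (blue) and the library labelled depleted (red) of 4 fibroblast subclusters; n is the number of cells inferred from the shares and bars are medians. The medians in subcluster 3 were 90% and 80.4%, and those of the other populations lay between 6.6% and 14.3%.

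The subcluster stood apart most plainly in genes of dividing cells. Mki67, a protein that coats mitotic chromosomes, was counted in 100% of cells of both libraries, and in 10% to 19% of cells elsewhere. Cdc20, the activator of the anaphase-promoting complex, was counted in 93.3% of control cells and 95.7% of cells in the library labelled depleted, compared with 0% to 17.4% of those of the other subclusters. Top2a, the topoisomerase that untangles sister chromatids, had shares of 70% and 73.9%. Hmgb2, a chromatin protein, had shares of 96.7% and 100% in subcluster 3 but also of 56.5% to 100% in the others, so it set the subcluster apart less than Mki67 or Cdc20 did.

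Contractile and myofibroblast genes were counted to differing extents. A cell had counts for 14.3 of the 23 genes of that list on average in the control library and 14 in the library labelled depleted, against 13.1 to 17.5 in the other subclusters. The tropomyosin genes Tpm1, Tpm2 and Tpm4, Cald1 and Tagln2 were in 100% of cells of both libraries. Acta2, the smooth muscle actin that marks myofibroblasts, was counted in 53.3% of control cells and 78.3% of cells in the library labelled depleted. Postn, the matricellular protein whose locus drives Cre, was counted in 40% (22.7% to 59.4%) of control cells and 13% (2.8% to 33.6%) of cells in the library labelled depleted, while its shares were 25.5% and 28.1% in subcluster 0, 10% and 20% in subcluster 4 and 87% and 100% in subcluster 5. Cnn1 and Myh11, late contractile genes, were at most at 16.7% and 4.3%. General fibroblast genes also ranged widely. Of the 21 genes of that list, 15 reached 25% in either library. Counts were found for 11.4 of the 21 per control cell on average and for 11.7 in the library labelled depleted. Dcn, Col1a1, Col1a2, Col3a1 and Vim were in 100% of cells of both libraries. Pdgfra was counted in 66.7% of control cells and 87% of cells in the library labelled depleted. Other members were rare, such as Tcf21 at 6.7% and 8.7%, Dpt at 13.3% and 8.7% and Meox1 at 0% in both. Epicardial genes were common. Wt1, a transcription factor of the epicardium, was counted in 93.3% and 100% of cells, and all 12 genes of the epicardial list reached 25% in either library. The cells are therefore called subcluster 3 below.

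Promoters of 3 mitotic genes are printed to show where such letters are found and where they are not. They are those of Cdc20 (chr4:118294491-118294790, GRCm39, minus strand) and Top2a (chr11:98914966-98915265, minus strand), which had nearly equal shares in both libraries, and of Pttg1 (chr11:43316759-43317058, minus strand), whose share was lower in the library labelled depleted. Each runs 5′ to 3′ from 250 bases before to 50 bases after a transcript start in RefSeq. The GENCODE gene begins 70 bases upstream of that start for Cdc20 and 47 for Top2a, but 4192 bases upstream for Pttg1, so the Pttg1 window covers an inner start. Capitals mark the CHR (TTTGAA) and the CCAAT box (CCAAT), searched on both strands.
Cdc20 promoter: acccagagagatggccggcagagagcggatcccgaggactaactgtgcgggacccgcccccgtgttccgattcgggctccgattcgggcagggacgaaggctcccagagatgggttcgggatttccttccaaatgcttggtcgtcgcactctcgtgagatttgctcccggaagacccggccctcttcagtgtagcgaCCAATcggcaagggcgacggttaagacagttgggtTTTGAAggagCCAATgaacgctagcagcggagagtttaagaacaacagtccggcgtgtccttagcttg
Top2a promoter: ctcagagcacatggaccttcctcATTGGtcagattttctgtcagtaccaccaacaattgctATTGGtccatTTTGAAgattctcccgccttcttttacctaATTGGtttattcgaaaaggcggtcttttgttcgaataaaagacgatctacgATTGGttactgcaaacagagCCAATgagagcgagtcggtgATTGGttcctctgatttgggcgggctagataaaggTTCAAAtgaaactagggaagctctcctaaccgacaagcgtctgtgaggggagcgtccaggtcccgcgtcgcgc
Pttg1 promoter: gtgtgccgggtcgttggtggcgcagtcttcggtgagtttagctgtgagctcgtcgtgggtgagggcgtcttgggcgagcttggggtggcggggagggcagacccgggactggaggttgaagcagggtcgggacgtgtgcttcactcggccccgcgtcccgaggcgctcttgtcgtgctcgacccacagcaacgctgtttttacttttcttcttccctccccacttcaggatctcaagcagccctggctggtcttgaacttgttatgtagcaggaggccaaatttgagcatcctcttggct

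In Cdc20 the CHR starts 18 bases before the RefSeq start, between CCAAT boxes 53 and 8 bases before it. Top2a holds CHR letters 179 and 23 bases before the start and 6 CCAAT boxes. The Pttg1 window holds neither, which says only that these letters are not in it. Among 59 promoters of 55 genes of the mitosis list, 69.5% held a CHR and 81.4% a CCAAT box, against 17.9% and 37.4% of all 32851 promoters of the table. These sequences are RefSeq's from its GRCm38.p6 table, placed on GRCm39 by exact match.

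The main question was how subcluster 3 differed between the genotypes. Of the 9015 genes, 96 (1.06%) were higher by at least 30 points in the library labelled depleted and 160 (1.77%) were lower. The median difference was 0 points, with 5th and 95th percentiles of -23.2 and 20.4 points. Of all these genes, 3915 had a higher and 4479 a lower share in the library labelled depleted, and 621 had a count in every cell of both libraries. A difference of at least 50 points was seen for 6 genes higher and 7 lower. At the mark of 30 points, the nearest genes inside it differed by 30.2 and -30 points and the nearest outside by 29.8 and -29.8 points, and the limit of 25% fell between 23.3% and 26.1%, the shares of 7 and 6 cells.

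**Figure D2:**
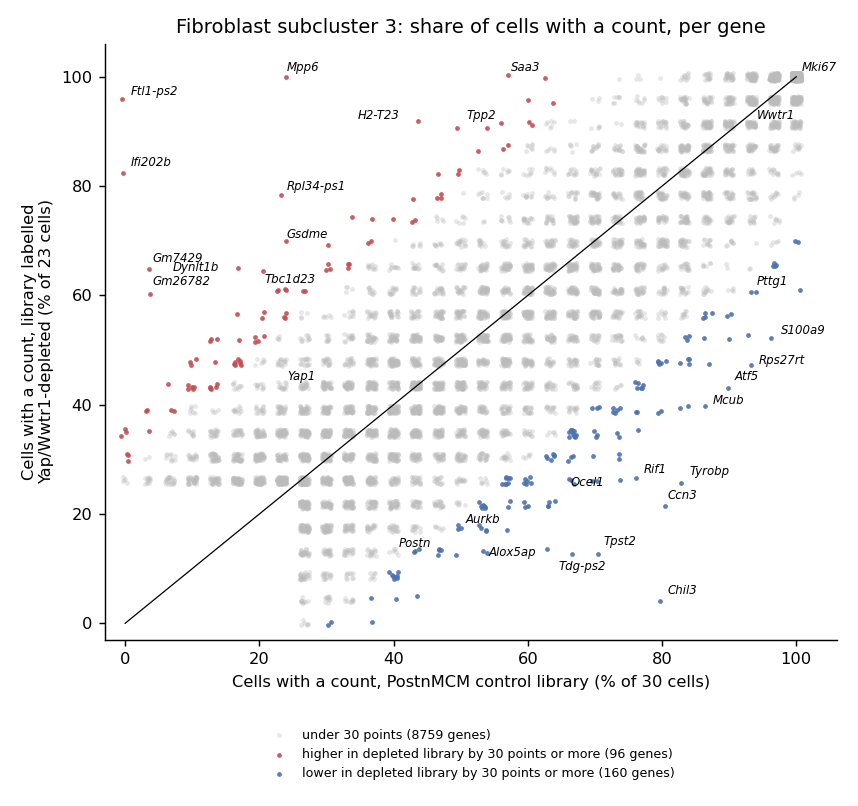
Share of cells with a count in the control library (horizontal axis, percent of 30 cells) against the library labelled depleted (vertical axis, percent of 23 cells) for the 9015 genes at the 25% limit; each point is a gene, moved by up to 0.7 points at random so that equal shares can be seen, and the line marks equal shares. The 96 genes in red and 160 in blue lie at least 30 points from the line, with Ftl1-ps2, Ifi202b and Mpp6 farthest above it and Chil3 farthest below.

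The targeted genes were not lower as a set. Yap1 (chromosome 9) was counted in 23.3% (9.9% to 42.3%) of control cells and 43.5% (23.2% to 65.5%) of cells in the library labelled depleted. Wwtr1 (chromosome 3), of which 1 allele was floxed, was counted in 93.3% and 91.3% of cells. Neither passed the mark, and the intervals of the libraries overlapped for both genes. A 3′ count also includes transcripts from which a floxed exon upstream has been removed, so these shares do not check the deletion and the library is named by its label.

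**Figure D3:**
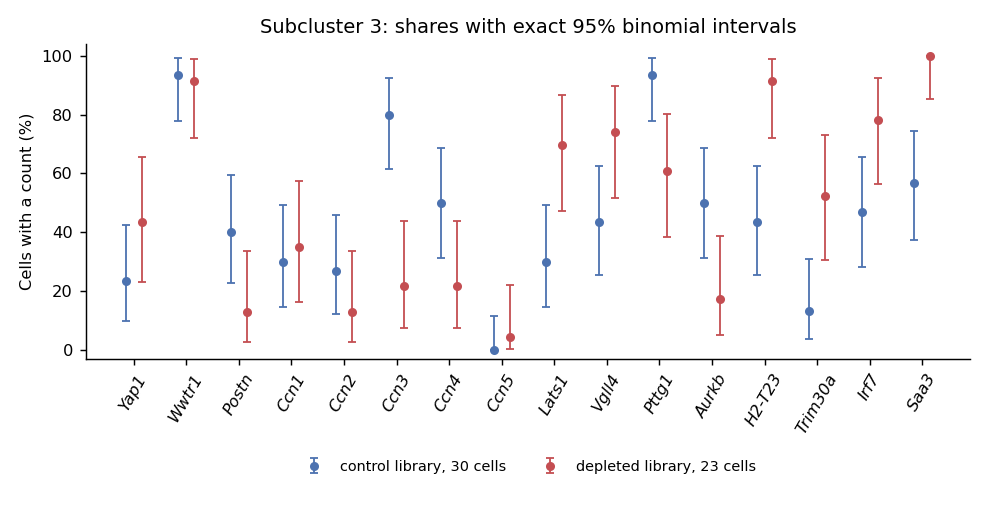
Share of cells of subcluster 3 with a count (vertical axis, percent) for 16 genes in the control library (blue, 30 cells) and the library labelled depleted (red, 23 cells); points are shares and bars exact 95% binomial intervals. The intervals lie apart for Ccn3, H2-T23 and Saa3 and overlap for Yap1, Wwtr1 and Postn.

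Among the secreted CCN proteins, matricellular regulators that include direct YAP/TAZ targets, Ccn3 had the largest difference. Ccn3 (chromosome 15, 54609012 to 54620154, plus strand) was counted in 80% (61.4% to 92.3%) of control cells and 21.7% (7.5% to 43.7%) of cells in the library labelled depleted, a difference of -58.3 points. Its shares were 83.4% and 37.5% in subcluster 0, 27.5% and 0% in subcluster 4 and 60.9% and 19% in subcluster 5. Ccn3 was thus about as widely counted in dividing control fibroblasts as in subcluster 0, and its share in the library labelled depleted was the lower one in each of the 4 subclusters. In subcluster 4 it rests on 10 cells, whose interval of 0% to 30.8% overlaps that of the control library (14.6% to 43.9%). Ccn4 went from 50% of control cells to 21.7%, a difference of -28.3 points that misses the mark. Ccn2, the best known YAP/TAZ target of the family, was counted in 26.7% of control cells and 13% of cells in the library labelled depleted. Ccn1 was counted in 30% and 34.8% of cells, and Ccn5 in 0% and 4.3%.

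Other YAP/TAZ target genes differed by less. Of 25 measured members of that list, 16 reached 25% of cells, and 0 of these 16 differed by 30 points in either direction, against 1.06% and 1.77% of all genes. Their median difference was -2.1 points, beside 0 for all genes. Amotl2, an angiomotin that binds YAP, had shares of 53.3% of control cells and 34.8% of cells in the library labelled depleted, while Axl, a receptor tyrosine kinase, was at 83.3% and 82.6%. The largest difference of the list was that of Ajuba, a LIM protein that binds LATS kinases, at 26.7% and 47.8%. Birc5, the survivin of the chromosomal passenger complex, is on this list and the mitosis list and was counted in 100% of cells of both libraries.

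Of 16 YAP/TAZ partners and Hippo kinases, a list that holds TEAD factors as well as inhibitors, 2 were higher by at least 30 points and 0 lower (1.06% and 1.77% of all genes), with a median of 6 points beside 0 for all genes. Lats1, the kinase that phosphorylates YAP and TAZ, was counted in 30% (14.7% to 49.4%) of control cells and 69.6% (47.1% to 86.8%) of cells in the library labelled depleted. Vgll4, which competes with YAP for TEAD, was counted in 43.3% and 73.9% of cells. The related kinase Lats2 had shares of 63.3% and 52.2%, and the main TEAD factor here, Tead1, of 83.3% and 87%. In subclusters 0, 4 and 5 the shares of Lats1 differed by at most 11.1 points between the libraries.

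Most genes of mitosis had a somewhat lower share in the library labelled depleted. Of 65 mitosis genes at the 25% limit, 49 (75.4%) had a lower share there and 9 a higher one, against 49.7% and 43.4% of all genes, and the median difference was -6.1 points. By the mark of 30 points, 2 were lower (1.77% of all genes were) and 0 higher. Mean genes per cell were also lower in this library, at 5485 against 5605. With each gene's difference set against genes of like mean share the median was -4.3 points, and 44 of the 65 lay below 0. This centring puts the median of genes of like share at 0. The 65 genes were counted in the same 30 and 23 cells, so they are not separate observations.

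Pttg1 and Aurkb were the members that passed the mark, and of these Pttg1 no longer did when centred in this way, at -29.6 points against -34.1 for Aurkb. Pttg1 encodes securin, which holds separase inactive until anaphase, and was counted in 93.3% (77.9% to 99.2%) of control cells and 60.9% (38.5% to 80.3%) of cells in the library labelled depleted. Aurkb, the kinase of the chromosomal passenger complex, was counted in 50% (31.3% to 68.7%) and 17.4% (5% to 38.8%) of cells. The other subunits of that complex did not pass, with Birc5 at 100% in both, Cdca8 at 100% and 87%, and Incenp at 60% and 47.8%.

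Kinetochore and spindle genes differed by less than 30 points, in either direction. Ndc80, of the complex that grips microtubules, had shares of 66.7% of control cells and 47.8% of cells in the library labelled depleted. Its partners Nuf2, at 80% and 69.6%, and Spc25, at 70% and 65.2%, differed by less. Among the motor proteins Kif20b was at 70% and 43.5%, and Kif11 at 63.3% and 65.2%. The mitotic cyclins were close to full detection in both libraries, with Ccnb1 at 90% and 87%, Ccnb2 at 100% and 91.3% and Ccna2 at 96.7% and 87%, as was their kinase Cdk1 at 90% and 82.6%. Sgo1, which protects centromere cohesion, went the other way, at 46.7% and 60.9%.

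Of 38 genes of the G1/S transition and of DNA replication, 0 passed the mark (1.06% and 1.77% of all genes). Of these, 22 (57.9%) had a lower and 16 a higher share in the library labelled depleted, beside 49.7% and 43.4% of all genes. Their median was -6 points and their mean -3.3, and the median was -3.4 and -2.2 points at detection limits of 10% and 50%. The 4 most widely counted were Rrm1, at 100% of control cells and 87% of cells in the library labelled depleted, Nasp, at 96.7% and 87%, Dut, at 93.3% and 78.3%, and Tyms, at 90% and 91.3%. Pcna, the sliding clamp of replication, was at 73.3% and 56.5%, while Pola1, the catalytic subunit of polymerase alpha, was at 43.3% and 65.2%. A cell had counts for 19.9 of the 42 genes of this list on average in the control library and 18.8 in the library labelled depleted, and for 7.57 to 11.3 in the other subclusters. Among D cyclins and growth arrest genes, Cdkn1c, an inhibitor of cyclin-dependent kinases, was counted in 53.3% of control cells and 21.7% of cells in the library labelled depleted and was the one of 22 past the mark, with 0 higher and 1 lower (1.06% and 1.77% of all genes) and a list median of 1.9 points. When centred it was at -29.7 points. Btg2, an antiproliferative factor, was at 53.3% and 82.6%, and Ccnd1 at 13.3% and 34.8%.

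**Figure D4:**
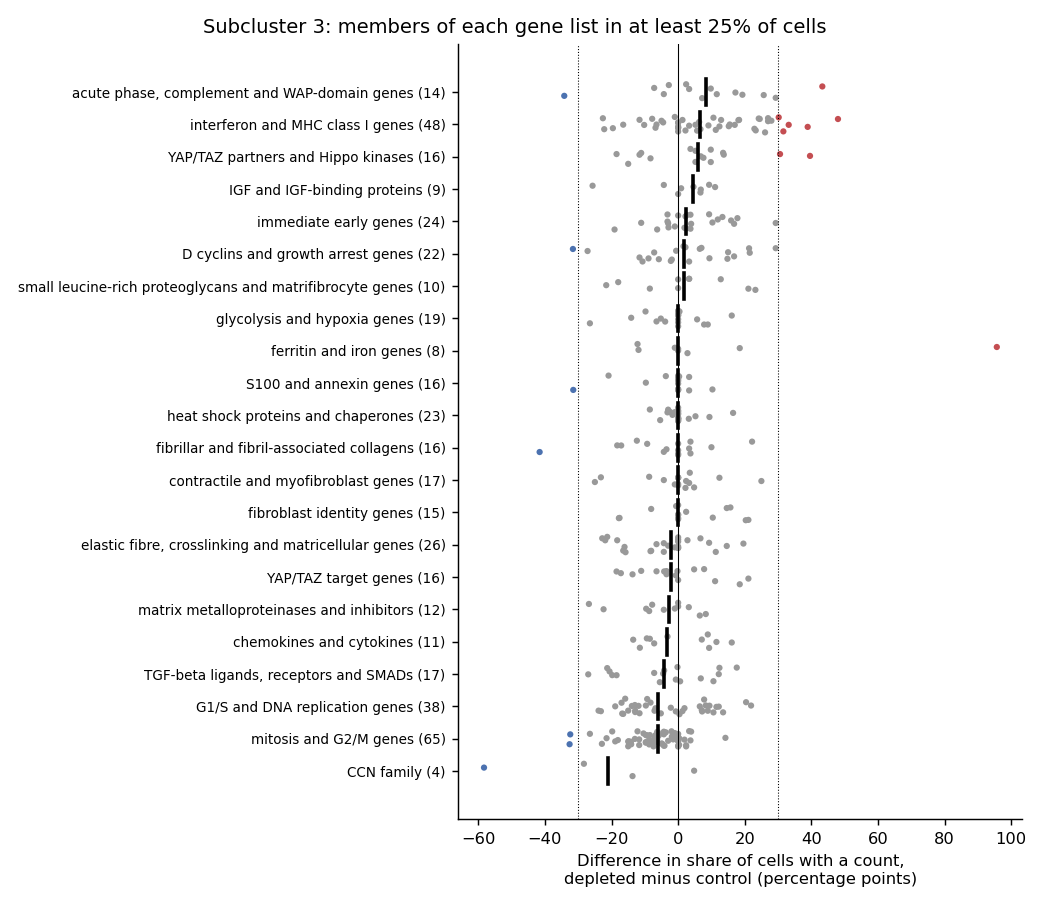
Difference in the share of cells with a count, library labelled depleted minus control library (horizontal axis, percentage points), for the members of 22 gene lists that reached the 25% limit; each point is a gene, bars are medians, dotted lines mark 30 points, and the number of genes is in brackets. Points past the mark are red or blue. The CCN family has the lowest median, at -21 points with 4 genes, and acute phase genes the highest, at 8.5 points.

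Most interferon-induced and MHC class I genes had a higher share in the library labelled depleted, 30 of 48 against 43.4% of all genes, while 12 had a lower one. Of the 48 members at the limit 5 were higher by at least 30 points (1.06% of all genes were) and 0 lower (1.77%), and the median difference was 6.5 points. H2-T23, a nonclassical class I molecule read by NK cells, was counted in 43.3% (25.5% to 62.6%) of control cells and 91.3% (72% to 98.9%) of cells in the library labelled depleted. Its shares were 74.5% and 93.8% in subcluster 0, 60% in both libraries in subcluster 4, and 69.6% and 90.5% in subcluster 5. Trim30a, an interferon-induced regulator of immune signalling, was at 13.3% and 52.2%, Irf7, the transcription factor that amplifies the interferon response, at 46.7% and 78.3%, H2-Q6 at 23.3% and 56.5%, and Ifi44 at 13.3% and 43.5%. Trim30a, H2-Q6 and Ifi44 reached the 25% limit in the library labelled depleted alone, as did Rsad2, Ifit1 and Iigp1, so they could only be higher. Stat2, Ifitm1 and Usp18 reached it in the control library alone and could only be lower. The most widely counted members had no room to differ, with B2m, H2-D1, Ifi27 and Bst2 in 100% of cells of both libraries. Some members were lower, such as Ifitm1, an interferon-induced membrane protein, at 40% and 17.4%.

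Over the list of 55 genes, a control cell of subcluster 3 had counts for 29.0 and a cell of the library labelled depleted for 33.4. These means were 31.6 and 36.1 in subcluster 0, 25.9 and 32.6 in subcluster 4 and 20.3 and 28.9 in subcluster 5. The library labelled depleted had the higher mean in each, and all 4 pairs come from the same 2 libraries.

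The promoters of H2-T23 (chr17:36343544-36343843, GRCm39, minus strand) and Trim30a (the first of 2 in the table, chr7:104114351-104114650, minus strand), which had the largest differences of the list, are shown in the same way. Capitals mark the interferon-stimulated response element (ISRE, GAAANNGAAA) and CCAAT boxes on either strand.
H2-T23 promoter: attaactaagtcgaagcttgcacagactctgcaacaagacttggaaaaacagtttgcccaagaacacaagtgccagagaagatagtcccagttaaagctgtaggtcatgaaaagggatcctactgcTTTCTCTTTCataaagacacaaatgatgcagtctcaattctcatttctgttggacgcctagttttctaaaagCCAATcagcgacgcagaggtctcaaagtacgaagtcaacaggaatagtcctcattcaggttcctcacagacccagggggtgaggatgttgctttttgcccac
Trim30a promoter: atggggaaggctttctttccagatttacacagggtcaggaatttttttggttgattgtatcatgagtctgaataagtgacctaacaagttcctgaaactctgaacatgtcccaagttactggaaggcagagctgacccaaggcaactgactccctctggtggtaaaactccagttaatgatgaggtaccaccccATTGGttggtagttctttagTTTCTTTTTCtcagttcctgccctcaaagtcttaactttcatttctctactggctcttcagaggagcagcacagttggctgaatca

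An ISRE on the reverse strand begins 124 bases before the RefSeq start of H2-T23 and 36 bases before that of Trim30a, while the GENCODE genes begin 1978 and 7 bases upstream of these starts. These letters occur in 40% of 55 promoters of the list (45 genes matched) and in 3.44% of all 32851 promoters. The list was drawn up from genes known to answer interferon, so this share describes the list.

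Beside the CCN family, 1 gene of the matrix lists passed the mark. Of 16 collagen genes at the limit, 0 were higher by at least 30 points and 1 was lower (1.06% and 1.77% of all genes), with a median of 0. That gene was Col14a1, a collagen that binds along fibrils, counted in 63.3% of control cells and 21.7% of cells in the library labelled depleted, while its shares in subclusters 0, 4 and 5 differed by at most 8.7 points. The 2 chains of collagen I and the chain of collagen III were in 100% of cells of both libraries, as were Fn1 (fibronectin), Sparc and Fbln1, so these genes had no room to differ. None of 26 elastic fibre, crosslinking and matricellular genes, 17 contractile genes, 17 genes of the TGF-beta pathway, 12 metalloproteinases and inhibitors or 9 IGF genes passed the mark, with medians from -4.2 to 4.6 points. Members with room differed in both directions. Col5a3, a collagen V chain, was at 30% and 52.2%. Eln (elastin) was at 96.7% and 73.9%, Adamts5, a protease that cuts proteoglycans, at 83.3% and 56.5%, and Inhba, the activin A subunit, at 40% and 13%.

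Acute phase genes held both directions. Saa3, an acute phase apolipoprotein that is also listed among epicardial genes, was counted in 56.7% (37.4% to 74.5%) of control cells and 100% (85.2% to 100%) of cells in the library labelled depleted. Wfdc17, a WAP-domain protein of activated macrophages, was at 73.3% and 39.1%. The median of the 14 members was 8.5 points, with the complement genes Cfb at 53.3% and 82.6% and C1ra at 70% and 95.7%. Saa3 was also higher in subcluster 0, at 57.9% and 93.8%, and in subcluster 4, at 67.5% and 80%, but was counted in 60.9% of control cells and 38.1% of cells in the library labelled depleted in subcluster 5.

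The genes with the 12 largest positive differences began with Ftl1-ps2, a processed pseudogene of the ferritin light chain (chromosome 10, 130428026 to 130428574), counted in 0 of 30 control cells and 95.7% of cells in the library labelled depleted, while Ftl1 itself was in 100% of both. Ifi202b, an interferon-inducible DNA-binding protein, was at 0% (0% to 11.6%) and 82.6% (61.2% to 95%). Mpp6, a membrane scaffold protein now named Pals2 (chromosome 6), was at 23.3% and 100%. These 3 genes had the same contrast in the other subclusters. In the control cells of subclusters 0, 4 and 5, Ftl1-ps2 was at most at 2.5%, Ifi202b at 0% and Mpp6 at most at 47.8%, and in the library labelled depleted their lowest shares there were 80%, 57.1% and 90%.

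The rest of the 12 were the pseudogenes Gm7429 (3.3% and 65.2%) and Rpl34-ps1 (23.3% and 78.3%), the noncoding RNA gene Gm26782 (3.3% and 60.9%), the dynein light chain gene Dynlt1b (16.7% and 65.2%), H2-T23, the gasdermin gene Gsdme (23.3% and 69.6%), Tbc1d23 (20% and 65.2%), Saa3 and the peptidase gene Tpp2 (50% and 91.3%). Tbc1d23 had no such difference elsewhere, at 42.1% and 34.4% in subcluster 0, 62.5% and 60% in subcluster 4 and 39.1% and 47.6% in subcluster 5. Ftl1-ps2, Gm7429, Rpl34-ps1, Tdg-ps2 and members of gene families such as Ifi202b, H2-T23, H2-Q6, Dynlt1b and Rps27rt share sequence with near copies, so how reads were divided between the copies is uncertain.

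The 12 largest negative differences were led by Chil3, a chitinase-like protein that macrophages and neutrophils secrete, counted in 80% (61.4% to 92.3%) of control cells and 4.3% (0.1% to 21.9%) of cells in the library labelled depleted. After Ccn3 followed Tyrobp, the myeloid adaptor DAP12, at 83.3% and 26.1%. Alox5ap, the partner of 5-lipoxygenase in leukocytes, was at 63.3% and 13%, and S100a9, a neutrophil calcium-binding protein, at 96.7% and 52.2%. Chil3, Tyrobp and S100a9 had a lower share in the library labelled depleted in subclusters 0, 4 and 5 as well, with Chil3 at 75.2% and 9.4%, 65% and 0%, and 43.5% and 4.8%.

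The others of these 12 are on none of the marker lists, and their levels in myeloid cells were not looked at. Tpst2, a tyrosylprotein sulfotransferase, was counted in 70% of control cells and 13% of cells in the library labelled depleted, and Rif1, a regulator of replication timing and DNA break repair, in 76.7% and 26.1%. The mitochondrial calcium uniporter subunit Mcub was at 86.7% and 39.1%, the stress transcription factor Atf5 at 90% and 43.5%, Ocel1 at 73.3% and 26.1%, the pseudogene Tdg-ps2 at 66.7% and 13%, and Rps27rt at 93.3% and 47.8%. Rif1 was at 42.8% and 50% in subcluster 0 and at 39.1% and 66.7% in subcluster 5, where its share was higher in the library labelled depleted, and at 72.5% and 30% in subcluster 4. Ocel1 was lower in each of the other subclusters, at 77.2% and 21.9%, 70% and 20%, and 52.2% and 9.5%. Tpst2, Mcub, Atf5 and Tdg-ps2 were lower there too, with differences from -32.5 to -2.9 points, while Rps27rt was lower in subclusters 0 and 4 and higher in subcluster 5.

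Markers of other cell types differed beside these genes. A control cell of subcluster 3 had counts for 3.67 of 13 neutrophil markers and a cell of the library labelled depleted for 2.17, and over the 4 subclusters these means ran from 2.96 to 3.78 and from 1.94 to 2.43. All 6 neutrophil markers at the 25% limit had lower shares in the library labelled depleted, as did 49.7% of all genes. Csf3r, Retnlg and Mmp9 reached that limit in the control library alone, at 26.7% of its cells each, so they could only be lower. Under the limit, Lcn2 (20% and 21.7%), Camp (6.7% and 13%) and Il1r2 (13.3% and 21.7%) were higher in the library labelled depleted. Cxcr2, Ngp and G0s2 were lower, at 6.7% and 0% each. For 20 macrophage and monocyte markers the means were 9.57 and 8.56 in subcluster 3, with ranges of 8.52 to 11.1 and 7.24 to 8.56. Of 16 at the limit, Tyrobp, C1qb (80% and 39.1%) and Lyz2 (80% and 47.8%) were lower by at least 30 points (1.77% of all genes), with Lyz2 at -29.8 points when centred, while Csf1r (50% and 56.5%), Ptprc (30% and 30.4%) and Cd14 (20% and 47.8%) were not lower. Ltf was at 0 in both libraries. The part of such transcripts in the differences of Chil3, Tyrobp, Alox5ap, Wfdc17 and S100a9 was not tested.

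Transcripts of red cells and cardiomyocytes followed the same direction. Hbb-bs, a beta globin, was counted in 43.3% of control cells and 4.3% of cells in the library labelled depleted, and the mean over 5 erythroid markers was 1.20 and 0.216 genes per cell, with ranges over the 4 subclusters of 0.607 to 1.20 and 0 to 0.216. For 13 cardiomyocyte markers it was 0.965 and 0.217, with ranges of 0.519 to 0.965 and 0.217 to 0.400, and 11 of the 13 were at 0 in the library labelled depleted. These 11 were rare in control cells too, at 13.3% (Myl3) or less, and a share of 0 there allows up to 13%. Tnnt2, Tnni3, Ttn, Pln, Nppa, Mb and Ckm were each in 3.3% of control cells. Myl7 was the most widely counted of the list, at 36.7% and 17.4%. The mean of T and NK cell markers was the other way round, at 0.768 and 1.39 of 10 genes, with ranges of 0.347 to 0.768 and 1.06 to 1.57 and with Cd3d at 10% and 39.1%. Within that list Gzma (16.7% and 4.3%), Nkg7 (3.3% and 0%) and Il7r (6.7% and 0%) were lower in the library labelled depleted, and the other members were higher. Cells of subcluster 3 had nearly the same endothelial and pericyte means in both libraries, at 2.10 and 2.22 of 11 and 1.17 and 1.13 of 9 genes, with Cdh5, Tek, Vwf and Abcc9 at 0 in both. B cell markers stood at 1 and 0.913 of 6 genes, with Ebf1 and Ms4a1 at 0, epicardial markers at 8.43 and 8.22 of 12 and Schwann and glia markers at 0.934 and 0.695 of 4. Among epicardial genes Upk3b, a uroplakin of mesothelium, was at 93.3% and 60.9%, a difference of -29.6 points when centred.

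**Figure D5:**
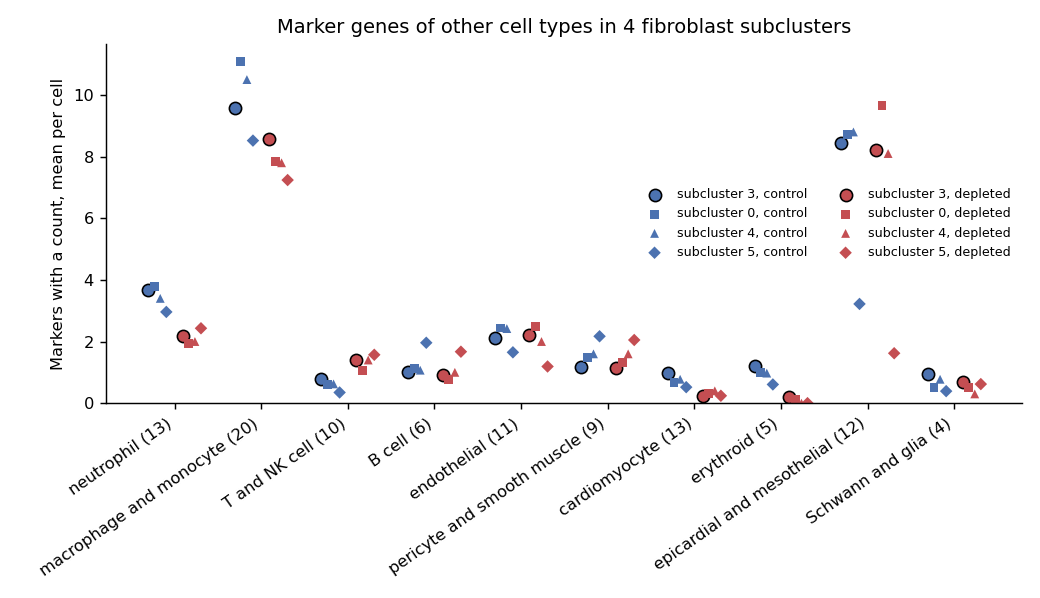
Mean number of marker genes with a count per cell (vertical axis) for 10 cell types, with the number of markers in brackets, in the control library (blue) and the library labelled depleted (red); symbols are subclusters, with subcluster 3 outlined in black. The means of neutrophil, cardiomyocyte and erythroid markers are lower in the library labelled depleted in subcluster 3, and the mean of T and NK cell markers is higher, though not every member follows.

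Housekeeping, stress and other lists had at most 1 member past the mark each, beside 1.06% higher and 1.77% lower of all genes. Of 23 heat shock proteins and chaperones 0 passed, but 12 were in 100% of cells of each library and had no room to differ. Immediate early genes, which dissociation of tissue can induce, had 0 of 24 past the mark, with a median of 2.5 points and Jun at 86.7% and 100%. Of 19 glycolysis and hypoxia genes, 15 fibroblast identity genes and 10 genes of small proteoglycans and matrifibrocytes 0 passed, with medians of 0, 0 and 1.6 points. Among 8 ferritin and iron genes Ftl1-ps2 was 95.7 points higher, and the median was 0. Among 11 chemokines and cytokines 0 passed, with a median of -3.2 points and with Cxcl14 at 76.7% and 65.2% and Il33 at 73.3% and 82.6%. Anxa4, an annexin, was the one of 16 S100 and annexin genes past the mark, at 96.7% and 65.2%, and it was at -29.8 points when centred on genes of like share.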

How the data were processed

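Ventricular interstitial cells of 1 PostnMCM control library and 1 library labelled Yap/Wwtr1-depleted were profiled by 10x Chromium 3′ sequencing. The authors counted UMIs with Cell Ranger 6.1.1 (per the submitters' processing notes) on GRCm39 with an NCBI annotation, left out genes seen in few cells, poor clusters and outliers, applied SCTransform in Seurat, and re-clustered the fibroblast cluster. No doublet caller is named in the sources used here, so doublets may remain. The deposited tables give, per gene, the fraction of cells of each library with a corrected count above 0, at 3 decimals, beside the authors' own log2 fold changes and p-values over cells, which were not used. The table of subcluster 3 and those of subclusters 0, 4 and 5 came from 1 normalization. The fibroblast cluster table served only to infer its cell numbers.

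The number of cells per library was taken as the smallest for which every deposited fraction is a whole number of cells. Both libraries hold too few cells for small differences to be seen. With 1 library per group no test was made. The members and the 33 gene lists were chosen with earlier results of these data known. Genes named were those with the 12 largest differences in each direction, Yap1, Wwtr1, Postn and the CCN family, and of each list the members past 30 points and up to 4 with the highest shares. Other genes were named after their values were seen. Lists were summarised by counts and medians over members in at least 25% of cells. Alternatives were detection limits of 10% and 50%, sizes of 20 and 40 points, centring in 20 bins of mean share, leaving out pseudogenes and ribosomal protein genes, means, and odds ratios with 0.5 added. The calculations were tested on simulated data. Python 3.11.15, pandas 2.3.3, scipy 1.17.1 and matplotlib 3.10.9 were used. Gene positions are those of the GENCODE annotation of GRCm39.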

Additional observations from a re-analysis of the deposited data

Results flagged for a closer look

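Pttg1 was the named gene that was past 30 points in opposite directions in different subclusters. Its share was lower by 32.4 points in the library labelled depleted in subcluster 3 (93.3% of control cells and 60.9%), and higher by 48.4 points in subcluster 0 (11% and 59.4%), by 30 points in subcluster 4 (10% and 40%) and by 44.1 points in subcluster 5 (13% and 57.1%). In the library labelled depleted the share of cells with a Pttg1 count thus lay between 40% and 60.9% over the 4 subclusters, and in the control library between 10% and 13% outside subcluster 3. The value in subcluster 3 was -29.6 points when centred on genes of like share, and that in subcluster 4 rests on 10 cells labelled depleted, with intervals that overlap (12.2% to 73.8%, and 2.8% to 23.7% in the control library). The difference between subclusters was not tested, for want of replicate libraries. Outlying samples were not looked for, because a group holds 1 library.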

How the results depend on the processing

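No paired analysis was possible because there was 1 library per genotype, and for the same reason no library could be left out. The numbers of genes past the mark depended on its size: at 20 points 472 genes were higher and 727 lower in the library labelled depleted, and at 40 points 13 and 31. With a detection limit of 50% of cells 63 genes were higher. The other counts stayed within 1.5 times. The median of the CCN family was -43.3 points at the limit of 50%, and that of the erythroid markers -19.0 points at the limit of 10%, because other members entered or left. The remaining 127 of 129 alternative list values moved by less than 50% of the width of the counting interval of a share, as did the centred differences of 139 named genes. That interval, taken in the library labelled depleted, is wide (23.2% to 65.5% for a share of 43.5%). The T and NK marker median, at 29.1 points and at 13.3 with the limit of 10%, thus counts among the 127. The endothelial marker median changed sign, from 10.9 to -2.4 points at the limit of 10%, and so did the centred differences of Axl and Tgfbr2, from -0.7 to 1 point each. The odds ratios of the 139 genes kept the direction of the difference. Of 40 named genes past 30 points, 35 remained past it after centring on genes of like share, and Anxa4, Cdkn1c, Lyz2, Pttg1 and Upk3b were then between -29.8 and -29.6 points. Requiring 99% of fractions in place of all gave the same cell numbers. At 23 and 30 cells intervals are wide (31.3% to 68.7% for a share of 50% in the control library), and genes near 0% or 100% in both libraries leave no room for one. Depth per cell is not in the tables, so shares could not be compared at equal depth.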

Other observations

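Genes counted in 1 library and absent from the other were few. Of the 9015 genes, 13 were at 0 of 30 control cells and in at least 25% of the 23 cells labelled depleted, and 9 were at 0 of those 23 and in at least 25% of control cells. Beside Ftl1-ps2 and Ifi202b, the former 13 reached at most 34.8% and the latter 9 at most 36.7%. They were picked after their values were seen and include Rsad2, the interferon-induced enzyme viperin, at 0% and 26.1%, and E2f6, a repressor of the E2F family. Pseudogenes whose symbols end in -ps and a number had a median difference of 11.75 points over 20 genes, against 0 for 93 ribosomal protein genes and 2.8 for 98 genes whose symbol is Gm and a number.

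Some further genes were chosen after their values were seen. H2-Aa, an MHC class II chain, was counted in 76.7% of control cells and 34.8% of cells in the library labelled depleted, and Cd74, the class II invariant chain that is also a macrophage and B cell marker here, in 90% and 78.3%, which is short of 30 points. Dlk1, a Notch ligand homologue of immature stromal cells, was at 63.3% and 21.7%, and Prg4, the lubricin of mesothelial and synovial surfaces, at 3.3% and 39.1%.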
